A study of Homo sapiens and Mus musculus with 24 samples.

Results

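The HOX cluster genes and the antisense long noncoding RNAs (lncRNAs) transcribed beside them were examined in 2 human cell lines by UPA-seq, which sequences the RNA left in the aqueous phase of a phenol extraction after UV irradiation of living cells. Members were chosen by name alone: every gene of the human files whose symbol begins with HOXA, HOXB, HOXC or HOXD, antisense genes included, plus HOTAIR, HOTAIRM1 and HOTTIP. This gave 55 of the 58381 genes, of which 39 are mRNAs and 16 are lncRNAs. The HOXA cluster on chromosome 7 holds 17 of them, the HOXB cluster on chromosome 17 and the HOXC cluster on chromosome 12 hold 14 each, and the HOXD cluster on chromosome 2 holds 10.

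HepG2 is a human hepatocellular carcinoma line and HEK293 is a human embryonic kidney line. The labels say HEK293, whereas the culture methods of the study name HEK293T, a derivative that carries a viral T antigen. Each line has 3 nonirradiated samples, sequenced as conventional RNA-seq, and 3 samples irradiated with 120 mJ/cm2 of UV light before extraction. The labels name no genotype change or agent other than UV. RNA crosslinked to protein is lost to the interphase in this method. A lower value upon UV irradiation is a smaller number of reads from the aqueous phase relative to other genes, and which step from irradiation to sequencing set it was not tested. In such bulk samples fewer cells with an RNA and less of it per cell cannot be told apart. The mouse samples of the series were not used here.

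HOX genes encode homeodomain transcription factors that give segments along the head-to-tail axis of the embryo their identity. Mammals carry them in 4 clusters, and members at the same place in different clusters form numbered paralog groups: low-numbered groups are used toward the head, high-numbered groups toward the tail and the ends of the limbs. Adult and cultured cells usually keep part of the pattern of the tissue they came from, held open by Trithorax proteins and closed by Polycomb proteins. The lncRNAs lie mostly on the opposite strand: HOTAIRM1 at the head end of the HOXA cluster, HOTTIP at its tail end beside HOXA13, and HOTAIR in the HOXC cluster between HOXC11 and HOXC12.

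The mRNAs carry the homeobox, which encodes the DNA-binding domain, and they are nearly alike there. The 30 bases that begin the conserved core of the domain's recognition helix are shown for 8 mRNAs on which the results below turn, read from GRCh38 with the GENCODE 44 canonical transcripts, 5′ to 3′ on the coding strand, because reads from such stretches are the ones that paralogs could share. The stretch was found in 39 of 39 HOX mRNAs, and 16 of its positions hold the same base in all of them. Capitals mark bases that differ from the commonest base at that position over the 39.
HOXD1 (chr2:176189981-176190010, plus strand): tggttccagaaccgCaggatgaaACagaag
HOXD3 (chr2:176171696-176171725, plus strand): tggttccagaaccggCgCatgaagtaCaag
HOXB3 (chr17:48550898-48550927, minus strand): tggttccagaaccggCgCatgaagtaCaag
HOXA3 (chr7:27108506-27108535, minus strand): tggttccagaaTcgCCgCatgaagtaCaaA
HOXA4 (chr7:27129375-27129404, minus strand): tggttTcagaaccggaggatgaagtGgaag
HOXC9 (chr12:54002606-54002635, plus strand): tggttTcagaaTcgAaggatgaagATgaaA
HOXD10 (chr2:176119145-176119174, plus strand): tggttTcaAaaccgCCgAatgaaACTCaag
HOXA13 (chr7:27198231-27198260, minus strand): tggttccagaacAggaggGtTaaAGagaaA
HOXD3 and HOXB3, members of one paralog group, have the same letters throughout, and theirs were the only 2 transcript sets among all members of different clusters that had a run of 50 bases in common. The other mRNAs shown differ from the commonest bases at 2 to 9 positions, the range over all 39.

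Within a cluster, in contrast, members share sequence because they overlap. The authors counted a read for every gene it overlapped, without regard to strand in the counting command, so sense and antisense reads in shared exon bases cannot be told apart. Shared exon bases made up 74.1% of HOXD3, 58.1% of HOXD1, 80.5% of HOXD4 and 47.3% of HOXA4, but 9.71% of HOXC9, 1.69% of HOXA13 and none of HOXB7, HOXD9, HOXA2, HOXA5 or HOXB-AS2. Among other members called below it was 63.1% for HOXA11-AS, 44.9% for HOTAIRM1, 40.1% for HOXA6 and 39.4% for HOXA-AS3.

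Library totals, the counts summed over all genes, were 36573473 to 53511592 in HepG2 and 9444707 to 11188033 in HEK293, and 1301 to 3035 of the HepG2 counts and 4303 to 10018 of the HEK293 counts in a library came from members. The hepatocyte genes (14, among them ALB, APOA1 and HNF4A) summed to 56749 to 64224 CPM (counts per 1000000 counts of a library) in the nonirradiated HepG2 samples and to 3.49 to 6.73 CPM in HEK293, where 4 of them were listed at 0 in every sample. Kidney lineage transcription factors (6) summed to 12.6 to 14.6 CPM in HepG2 and 50.4 to 66.4 CPM in HEK293. PAX8 was an exception among the latter, with 589 counts over the HepG2 samples and 3 over those of HEK293. Scaling factors of the trimmed mean method (TMM) were 1.54 to 1.59 in nonirradiated and 0.619 to 0.655 in irradiated HepG2 samples, and 1.25 to 1.37 and 0.698 to 0.809 in HEK293. UV effects below are on that scale. With library totals alone the median log2 fold change of all genes moved from -0.08 to -1.38 in HepG2 and from -0.08 to -0.84 in HEK293, so every change upon UV is relative to the other genes of the library.

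Nonirradiated HepG2 cells had reads over a short stretch of the HOXA cluster and 1 end of the HOXD cluster, and over almost nothing else. Only 9 of the 55 members reached a mean of 0.5 CPM, and 28 were listed at 0 in all 3 samples, which at 131664791 counts in all allows up to 0.0228 CPM (counting error only). Per exon length, HOXD1, the first gene of its cluster, was at 9.58, 10.985 and 9.99 RPKM (CPM per kilobase of exon). Its mean of 10.2 ± 0.723 RPKM (SD, n = 3, as for all such values below) stood above every other member. HOXA-AS2, at 2.40 ± 0.0481 RPKM, HOXA3, at 2.28 ± 0.240 RPKM, HOXA5, at 1.90 ± 0.366 RPKM, and HOXA4, at 1.59 ± 0.308 RPKM, followed in that order, and neighbours in it lay within their spread. HOXA6 stood at 1.23 ± 0.0961 RPKM, HOTAIRM1 at 0.431 ± 0.0455 RPKM, HOXA-AS3 at 0.352 ± 0.0213 RPKM, HOXD3 at 0.245 ± 0.04998 RPKM and HOXA2 at 0.153 ± 0.129 RPKM. Both HOXD members named here overlap the gene model of HAGLR, an antisense lncRNA outside the naming rule. HAGLR had 9537 counts over these samples against 2673 for HOXD1. What part its reads play in the HOXD1 and HOXD3 levels was not tested.

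Just outside the 0.5 CPM limit in HepG2 was HOXA2, at 0.375 ± 0.318 CPM. HOXA2 varied widely, with 27, 13 and 6 counts in samples 1, 2 and 3, although sample 1 had the lowest total. Just inside the limit were HOTAIRM1, at 0.645 ± 0.0681 CPM, and HOXD3, at 0.870 ± 0.177 CPM. From HOXA7 toward the tail end of the HOXA cluster the highest level was that of HOXA13, at 0.1004 ± 0.0382 CPM. Of 14 HOXB members 13 were listed at 0 in every sample, with 1 count in all for HOXB7, and of 14 HOXC members 10 were. All HOXA members together contributed 61.4% ± 1.46 of the member counts and all HOXD members 38.4% ± 1.496.

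HEK293 cells, in contrast, expressed all 4 clusters: 52 of 55 members reached 0.5 CPM, and their summed level was 984 ± 82.2 CPM against 54.9 ± 2.55 CPM in HepG2. The highest levels per exon length belonged to high-numbered paralog groups. HOXD10 was at 23.9, 31.7 and 32.8 RPKM (mean 29.5 ± 4.83 RPKM). HOXA10-AS at 22.9 ± 1.93 RPKM, HOXA10 at 22.9 ± 1.25 RPKM, HOXA9 at 22.8 ± 0.641 RPKM and HOXA13 at 22.8 ± 3.02 RPKM came next and did not differ beyond their spread. HOXA10-AS has 62.3% of its exon bases in common with HOXA9, HOXA10 or MIR196B, and reads there count for each of them. HOXA5, at 19.8 ± 1.21 RPKM, was the highest member of groups 1 to 8. HOXD11 at 16.997 ± 2.34 RPKM, HOTAIRM1 at 13.7 ± 2.94 RPKM, HOXB-AS3 at 13.1 ± 0.389 RPKM and HOXC9 at 12.4 ± 1.22 RPKM completed the 10 highest.

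Only HOXB1, HOXC12 and HOXD12 stayed under 0.5 CPM in HEK293. HOXD12 stood closest to the limit, at 0.349 ± 0.264 CPM, then HOXC12, at 0.0706 ± 0.122 CPM. Just inside it were HOXB-AS2, at 0.697 ± 0.153 CPM, and HOXC-AS3, at 0.976 ± 0.417 CPM. HOXD1, the leading member in HepG2, was the fifth lowest per length in HEK293, at 0.601 ± 0.112 RPKM. The HOXA cluster supplied 52.5% ± 3.12 of the member counts, HOXD 19.1% ± 1.85, HOXB 16.7% ± 0.473 and HOXC 11.7% ± 0.945. The lncRNAs made up 21.4% ± 0.409 of them in HEK293 and 28.2% ± 1.41 in HepG2.

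**Figure D1:**
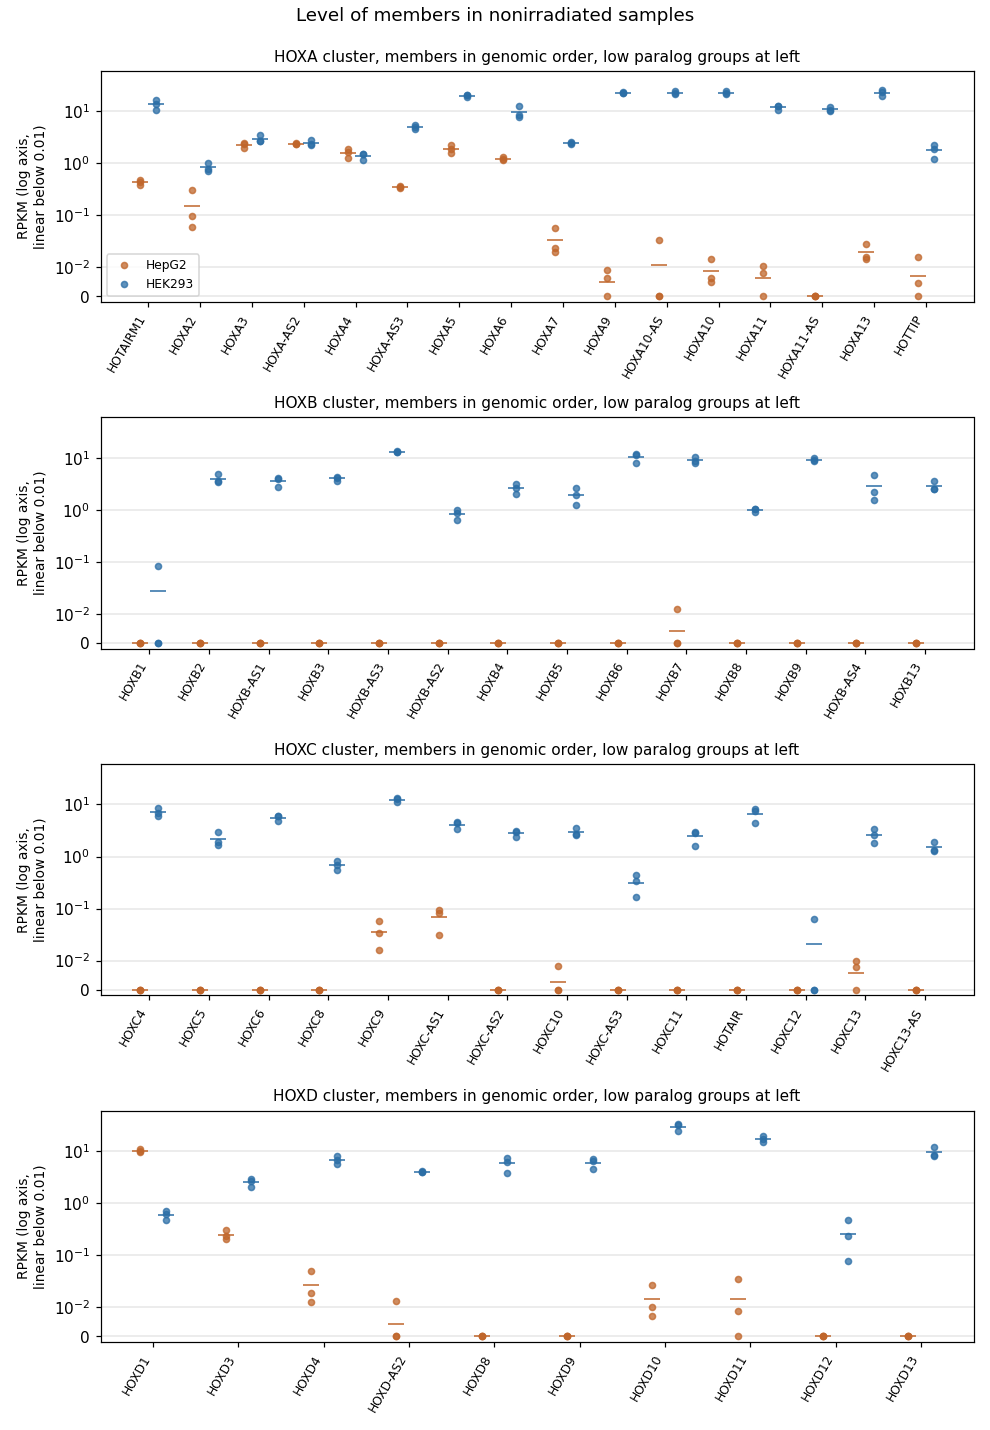
Level of the members in the nonirradiated samples of HepG2 (orange) and HEK293 (blue), in RPKM on a log axis that is linear below 0.01, with 1 panel per cluster and members in genomic order. Points are the 3 samples of a line and dashes their mean: HepG2 points lie above 0.1 RPKM only for HOXD1, HOXD3 and the HOXA members from HOTAIRM1 to HOXA6, while HEK293 points fill all 4 panels.

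The nonirradiated samples of the 2 lines were set against each other for the 52 members that reached 0.5 CPM in either line. In the quasi-likelihood test of edgeR (p-values adjusted by Benjamini-Hochberg), 48 were higher in HEK293 and 3 in HepG2 at an adjusted p under 0.05. Over all 23830 genes tested, 38.1% were higher in HEK293 and 37.6% higher in HepG2. Of the 52 members, 43 passed the filter only through HEK293 and so had to differ, and the count is a description of them. Line, sequencer model and depth cannot be told apart here.

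Among 9 members that reached the limit in both lines, 5 were higher in HEK293: HOTAIRM1 by 4.52 ± 0.220 (log2 difference ± SE, adjusted p = 9.2e-09), HOXA-AS3 by 3.39 ± 0.165, HOXA5 by 2.94 ± 0.175, HOXD3 by 2.93 ± 0.246 and HOXA6 by 2.54 ± 0.238. HOXD1 went the other way, with a log2 difference of -4.52 ± 0.203 (adjusted p = 5.1e-09), or 22.9-fold more in HepG2. Reads in exon bases that HOXD1 shares with HAGLR count for both genes, and HAGLR was also higher in HepG2 (-3.98). HOXA4, at -0.64 ± 0.256 (adjusted p = 0.041), and HOXA-AS2, at -0.39 ± 0.150 (adjusted p = 0.033), also passed the threshold as higher in HepG2. The HOXA4 call was lost without either of HepG2 samples 2 and 3 or any 1 HEK293 sample, and the HOXA-AS2 call without HepG2 sample 2 or 3 or HEK293 sample 3 (adjusted p up to 0.162 and 0.114). HOXA4 was also lost with DESeq2's test (adjusted p = 0.0552) and with HepG2 counts thinned to HEK293 depth (adjusted p = 0.174), and HOXA-AS2 with the thinned counts (adjusted p = 0.139) and under the replicate block (adjusted p = 0.0531). HOXA3 was nearly level, at -0.08 ± 0.174.

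For members listed at 0 in HepG2 a fold can be given only as a bound, with 3 counts over the group as the floor. On the TMM scale of the fitted differences, HOXA11-AS was at least 1027-fold higher in HEK293, HOXB3 at least 976-fold, HOXB6 at least 889-fold and HOXB-AS3 at least 812-fold, and HOTAIR, the HOXC lncRNA known for its link to Polycomb proteins, at least 558-fold. Over the 26 members with such a bound the lowest was 11.3-fold, for HOXD12. HOXA9 had 2 counts over the HepG2 samples, which gives a ratio of 3349 with a 95% exact counting interval of 926 to 27671. On library totals alone these bounds and ratios are 1.36 times as large. Members with more than 3 HepG2 counts had fitted log2 differences up to 10.81 ± 0.250 for HOXA10, 10.42 ± 0.289 for HOXD10, 9.69 ± 0.242 for HOXA13, 9.57 ± 0.343 for HOXD11 and 7.88 ± 0.288 for HOXC9.

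Upon UV irradiation of HepG2 cells, HOXD1 and HOXA4 rose relative to other genes while HOXD3, HOXA3 and HOXA5 fell. The test took the 9 members that reached 0.5 CPM in nonirradiated HepG2, and 3 were lower and 2 higher at an adjusted p under 0.05, together 5 of 9 or 55.6%. Over the 20117 genes tested, 78.8% changed, with 40.7% lower and 38.1% higher. The median log2 fold change of the 9 was -0.19, against -0.08 over all genes. The filter looked at nonirradiated samples only. Without it 7 members were called, 4 lower and 3 higher, where 11491 of 37174 genes were lower and 7846 higher.

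HOXD1, which encodes a group 1 homeodomain factor, had normalized CPM (TMM scale, used for all UV values) of 12.3, 13.6 and 12.5 in the nonirradiated and 24.2, 29.4 and 32.0 in the irradiated samples. All irradiated samples lay above all nonirradiated ones, and the fitted log2 fold change was 1.16 ± 0.110 (SE, adjusted p = 1.3e-05, edgeR). HOXA4, a group 4 factor, had 1.42, 2.03 and 1.85 nonirradiated and 4.05, 3.78 and 3.91 irradiated. Again the groups did not overlap, and the log2 fold change was 1.14 ± 0.162 (adjusted p = 0.00018, edgeR).

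HOXD3, of group 3, went from 0.692, 0.517 and 0.456 normalized CPM to 0.0619, 0.113 and 0.197. The groups were apart, and the log2 fold change of -2.14 ± 0.464 (adjusted p = 0.0024, edgeR) was the largest of the 9, a 4.40-fold reduction. The irradiated values rest on 2, 3 and 6 counts. HOXD3 entered through its nonirradiated samples alone, and the filter over all samples left it out, so its call is a description. HOXA3, its paralog in the HOXA cluster, had 5.61, 6.42 and 6.68 nonirradiated and 3.93, 3.55 and 3.91 irradiated, without overlap. Its log2 fold change was -0.72 ± 0.116 (adjusted p = 0.00042, edgeR). HOXA5 had 1.72, 1.98 and 2.46 nonirradiated and 1.79, 0.944 and 0.855 irradiated, so that 1 irradiated sample lay within the nonirradiated range. Its log2 fold change of -0.77 ± 0.289 (adjusted p = 0.035, edgeR) did not pass without nonirradiated sample 3, irradiated sample 2 or irradiated sample 3 (adjusted p up to 0.131).

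The 3 lncRNAs tested in HepG2 did not pass the threshold. HOXA-AS2 had 8.09, 7.88 and 8.17 normalized CPM nonirradiated and 8.38, 8.88 and 8.52 irradiated, a log2 fold change of 0.09 ± 0.0840 (adjusted p = 0.32, edgeR). HOXA-AS3, at -0.19 ± 0.199, and HOTAIRM1, at 0.39 ± 0.443, had overlapping groups. With the filter set to 10 counts in every sample HOXA-AS3 passed as lower (-0.46, adjusted p = 0.0378). Among all 4143 lncRNAs tested in HepG2 the median log2 fold change was -0.63, and 49.9% were lower. HOXA6, the remaining mRNA, had a log2 fold change of -0.51 ± 0.223 (adjusted p = 0.063, edgeR) with all irradiated samples below all nonirradiated ones. It passed as lower with DESeq2's size factors (-0.57, adjusted p = 0.0381), with the filter taken over all samples (adjusted p = 0.0325) and with 10 counts in every sample (-0.78, adjusted p = 0.00445). In all 3 of the 9 members were lower in every irradiated sample and 3 were higher, where 42.8% of all genes tested were lower in every irradiated sample and 39.6% were higher.

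**Figure D2:**
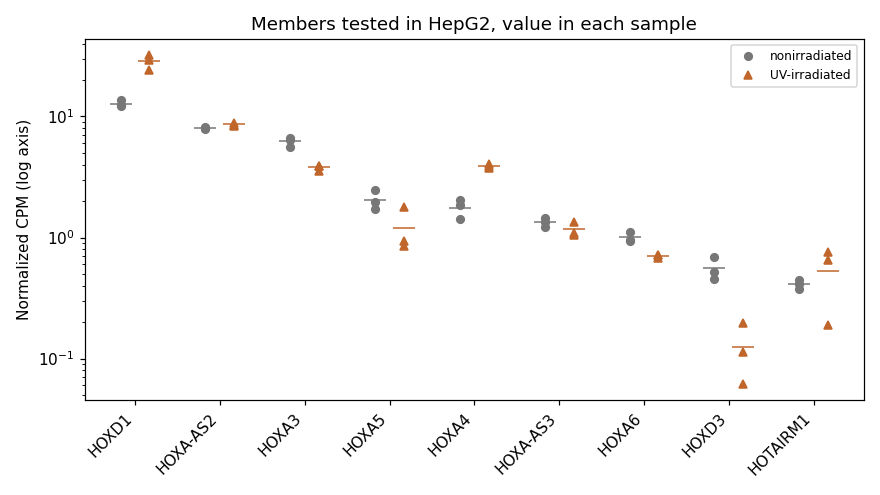
Normalized CPM (log axis) of the 9 members tested in HepG2, with grey circles for the 3 nonirradiated and orange triangles for the 3 UV-irradiated samples, and dashes for group means. HOXD1 and HOXA4 stand higher in every irradiated sample, HOXD3 and HOXA3 lower, and HOXA-AS2 is nearly level.

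HOXD1 thereby came to dominate the members' reads. Its share of all member counts, a measure that needs no scaling between libraries, was 36.4%, 38.3% and 35.2% in nonirradiated and 53.0%, 59.8% and 60.4% in irradiated HepG2 samples. HOXA3 went from 17.8% ± 1.14 to 7.73% ± 0.748 without overlap between groups. Shares sum to 100%, so a member's share can go down without a lower level of its own. An exact two-sided permutation test gave p = 0.1 for these shares, which is the smallest that 3 samples against 3 allow. With library totals alone, which set the median of all genes to -1.38, the HOXD1 and HOXA4 log2 fold changes were -0.14 and -0.17 and did not pass the threshold, and HOXD3, HOXA3 and HOXA5 were lower by more, at -3.42, -2.02 and -2.08.

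The gene models around HOXD1 and HOXD3 overlap those of HAGLR, an antisense lncRNA of the HOXD cluster outside the naming rule. HAGLR had 2686 to 3851 counts in nonirradiated HepG2 samples and its log2 fold change upon UV was 0.26 ± 0.0657 (adjusted p = 0.0055, edgeR). HAGLROS, on the strand opposite HAGLR, had -1.35 ± 0.198 (adjusted p = 0.00022, edgeR). Both were lower in HEK293 than in HepG2, by log2 differences of -3.98 and -3.11. The part that reads from HAGLR play in the HOXD1 and HOXD3 values was not tested. HOXA5 was the 1 member tested in HepG2 that shared no exon base with another gene.

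In HEK293 cells 19 of 52 tested members changed upon UV irradiation, 14 falling and 5 rising. Over the 20472 genes tested, 50.6% changed, with 26.4% lower and 24.2% higher. The shares among members were 26.9% lower and 9.62% higher. Same-numbered irradiated and nonirradiated HEK293 samples deviated together, and with the replicate number as a block 19 members were lower and 11 higher, 30 in all, where 35.3% of all genes were lower and 32.7% higher. The median log2 fold change of the 52 was -0.18 against -0.08 over all genes. In 16 members every irradiated sample lay below every nonirradiated one and in 8 above, where the background was 32.1% and 27.1% of genes.

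HOXC9, a group 9 factor, had the largest rise. Its normalized CPM were 14.8, 16.6 and 16.4 in nonirradiated and 37.3, 38.1 and 42.6 in irradiated samples, with a wide gap between the groups. The log2 fold change was 1.30 ± 0.133 (SE, adjusted p = 9e-05, edgeR). It was also the 1 member that still passed as higher with library totals alone (0.54, adjusted p = 0.015). HOXB7, of group 7, had 9.64, 12.1 and 9.84 nonirradiated and 22.6, 18.9 and 23.1 irradiated, a log2 fold change of 1.03 ± 0.165 (adjusted p = 0.00086, edgeR) between groups that did not overlap. HOXA11, which is needed for limb and uterus formation, rose by a log2 of 0.57 ± 0.146, its antisense HOXA11-AS by 0.39 ± 0.132 and HOTAIRM1 by 0.48 ± 0.181 (adjusted p = 0.01, 0.035 and 0.05 by edgeR, the last being 0.04998 before rounding). The HOTAIRM1 call was lost with DESeq2's test (adjusted p = 0.0595), no filter (0.0567), the filter over all samples (0.0647) and 10 counts in every sample (0.12), and that of HOXA11-AS with DESeq2's test (0.053), no filter (0.114) and 10 counts in every sample (0.097). With library totals alone these last 3 had negative values (-0.19, -0.38 and -0.29).

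The steepest fall was that of HOXB-AS2, a lncRNA near the limit of detection. Its normalized CPM were 0.423, 0.566 and 0.606 nonirradiated and 0, 0.116 and 0.111 irradiated, with the groups apart. The log2 fold change was -2.54 ± 0.723 (adjusted p = 0.017, edgeR), and it rested on 20 nonirradiated counts in all and was lost without nonirradiated sample 3 (adjusted p = 0.052) and with DESeq2's test (adjusted p = 0.0707). HOXB-AS2 entered through its nonirradiated samples alone, and the filter over all samples left it out, so its call is a description. HOXB4, a group 4 factor known for its effect on blood stem cell expansion, had 6.09, 7.77 and 8.63 nonirradiated and 2.55, 1.74 and 3.10 irradiated. Its log2 fold change of -1.60 ± 0.266 (adjusted p = 0.0011, edgeR) corresponds to a 3.04-fold reduction. HOXB5 went from 2.03, 3.07 and 4.01 to 1.65, 1.28 and 0.663, with a log2 fold change of -1.38 ± 0.395 (adjusted p = 0.017, edgeR), and HOXB3 from 23.1 ± 1.26 to 12.6 ± 1.23 normalized CPM (-0.87 ± 0.147).

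In the HOXD cluster 3 mRNAs fell. HOXD9 had 6.85, 9.22 and 9.62 normalized CPM nonirradiated and 3.00, 3.48 and 2.65 irradiated, a log2 fold change of -1.49 ± 0.228 (adjusted p = 0.00069, edgeR). HOXD10, the member with the highest level per length, had 51.4, 65.8 and 64.5 nonirradiated and 26.7, 33.2 and 30.1 irradiated, also without overlap (-1.01 ± 0.150, adjusted p = 0.00059, edgeR). HOXD4 went from 6.51, 7.68 and 8.78 to 1.95, 4.17 and 3.43 (-1.24 ± 0.274), but 80.5% of its exon bases belong also to another gene model. HOXD11, next to HOXD10, had -0.36 ± 0.135 (adjusted p = 0.0502, edgeR) and passed under the block (adjusted p = 0.0013). HOXD8, at 0.25 ± 0.280, and HOXD3, at -0.15 ± 0.231, had overlapping groups.

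In the HOXA cluster 6 members fell, 4 of them from HOXA2 to HOXA6 and 2 at the tail end. HOXA2, which patterns the hindbrain, had 1.52, 1.38 and 1.82 normalized CPM nonirradiated and 0.899, 0.464 and 0.332 irradiated (-1.52 ± 0.415, adjusted p = 0.014, edgeR). Its irradiated values rest on 6, 4 and 3 counts. HOXA4 had 1.61, 2.02 and 1.97 nonirradiated and 0.150, 1.04 and 0.884 irradiated, with irradiated sample 1 far below the others (-1.34 ± 0.457, adjusted p = 0.034, edgeR). HOXA13, which patterns the digits and the urogenital end of the body, had 79.0, 99.4 and 87.5 nonirradiated and 36.6, 54.6 and 46.4 irradiated (-0.95 ± 0.171, adjusted p = 0.0017, edgeR). Its neighbour HOTTIP, a lncRNA known to act on the tail end of the cluster, moved from 6.90 ± 1.88 to 3.78 ± 0.377 normalized CPM (-0.87 ± 0.254). Between them, HOXA9 at 0.21 ± 0.127 and HOXA10 at -0.14 ± 0.127 did not pass, the former passing as higher under the block (adjusted p = 0.016). HOXA6 (-0.81 ± 0.257) and HOXA-AS3 (-0.70 ± 0.156) completed the members that fell in this cluster.

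In the HOXC cluster 1 member was lower and 1 higher of 13 tested, and 3 and 4 under the block. HOXC-AS2, an antisense lncRNA that overlaps HOXC9, had 4.23, 5.02 and 4.997 normalized CPM nonirradiated and 1.80, 2.32 and 2.43 irradiated (-1.10 ± 0.236, adjusted p = 0.0042, edgeR). HOXC8, at -1.10 ± 0.547 (adjusted p = 0.12, edgeR), had a fold of the same size with fewer counts behind it. HOXC4 and HOXC6 were level, at 0.00 ± 0.167 and 0.01 ± 0.171. By cluster, 6 of 17 HOXA, 4 of 13 HOXB and 3 of 9 HOXD members were lower, and 3, 1 and 0 were higher. Under the block 7 HOXA, 4 HOXB and 5 HOXD members were lower, and 4, 3 and 0 were higher. By paralog group, 5 of 11 mRNAs of groups 1 to 4 were lower and 0 higher, against 2 and 1 of 11 in groups 5 to 8 and 3 and 2 of 14 in groups 9 to 13. Under the block these were 5 and 1, 2 and 2, and 6 and 5. Over all genes tested in HEK293, 26.4% were lower and 24.2% higher, and 35.3% and 32.7% under the block. The counts by cluster and by paralog group were not compared by a test with these shares or with each other.

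**Figure D3:**
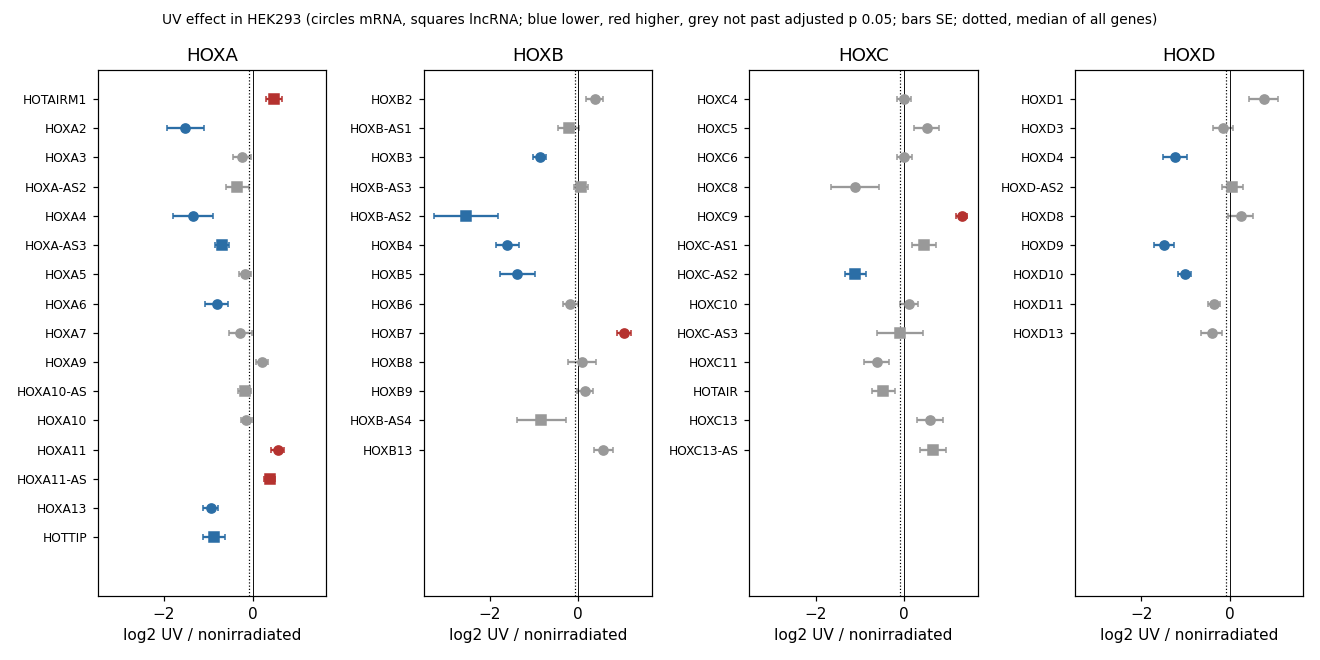
Log2 fold change upon UV irradiation in HEK293 with its SE for the tested members, 1 panel per cluster in genomic order. Circles are mRNAs and squares lncRNAs, blue and red mark 14 lower and 5 higher members at an adjusted p under 0.05, and the dotted line is the median of all genes (-0.08).

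**Figure D4:**
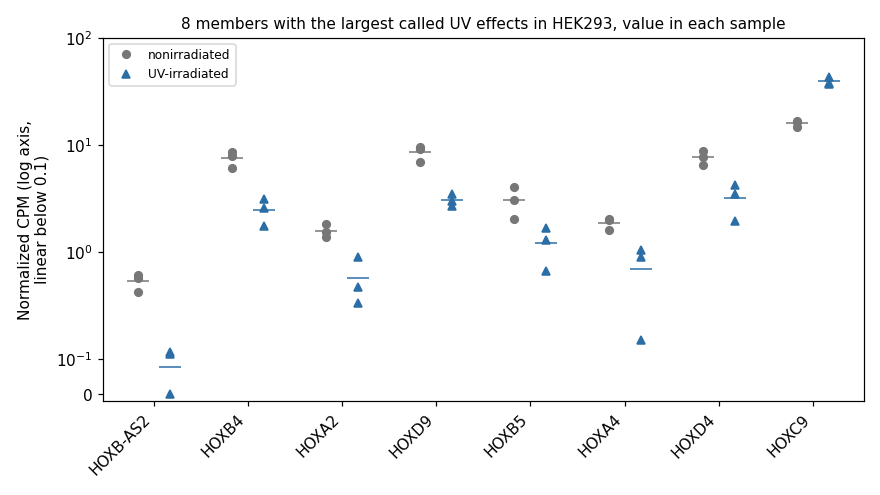
Normalized CPM (log axis, linear below 0.1) of the 8 members with the largest called log2 fold changes in HEK293, with grey circles for the 3 nonirradiated and blue triangles for the 3 irradiated samples, and dashes for means. The groups do not overlap for any of the 8, and HOXC9 is the 1 that rose.

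Of the 19 calls in HEK293, 11 held when any 1 sample was left out: HOXC9, HOXB7 and HOXA11 as higher, and HOXB4, HOXD9, HOXD4, HOXC-AS2, HOXD10, HOXA13, HOXB3 and HOXA-AS3 as lower. The other 8 were each lost in at least 1 such fit, with adjusted p up to 0.157. HOXA2, HOXB5 and HOTTIP were lost without nonirradiated sample 3 and without irradiated sample 2 or 3, HOTTIP also without nonirradiated sample 2. HOXA6 was lost without nonirradiated sample 1 or irradiated sample 2 or 3, and HOXA4 without nonirradiated sample 2 or 3 or irradiated sample 1 or 3. HOTAIRM1 was lost without sample 1 or 2 of either group, and HOXA11-AS in all such fits but 1.

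All 16 lncRNAs were tested in HEK293, where 4 were lower (HOXB-AS2, HOXC-AS2, HOTTIP, HOXA-AS3) and 2 higher (HOTAIRM1, HOXA11-AS). Their median log2 fold change was -0.20, against -0.28 over the 3923 lncRNAs tested. Among the 16, 25% were called lower and 12.5% higher, close to the 25.9% and 14.5% of those 3923. These shares were not compared by a test. The 36 mRNAs had a median of -0.17, against 0.01 over the 14424 protein-coding genes tested. HOTAIR had 9.13, 14.7 and 15.5 normalized CPM nonirradiated and 6.59, 11.6 and 10.1 irradiated. The ranges overlap, and the log2 fold change was -0.47 ± 0.264 (adjusted p = 0.16, edgeR), passing as lower under the block (adjusted p = 0.0015). HOXA-AS2, at -0.34 ± 0.258, and HOXC13-AS, at 0.66 ± 0.285, passed under the block too, the former as lower (adjusted p = 0.039) and the latter as higher (adjusted p = 0.042). HOXB-AS4, at -0.83 ± 0.560, HOXC-AS1, at 0.45 ± 0.273, HOXB-AS1, at -0.21 ± 0.238, HOXA10-AS, at -0.18 ± 0.146, HOXC-AS3, at -0.08 ± 0.518, HOXB-AS3, at 0.06 ± 0.165, and HOXD-AS2, at 0.06 ± 0.243, did not pass either way.

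The other mRNAs that passed in HEK293 only under the block were HOXC11 (-0.62 ± 0.282 without it) and HOXD13 (-0.40 ± 0.232) as lower, and HOXC13 (0.59 ± 0.290), HOXB13 (0.56 ± 0.216), HOXC5 (0.51 ± 0.291) and HOXB2 (0.37 ± 0.194) as higher. Their adjusted p under the block ran from 0.00056 for HOXB13 to 0.036 for HOXC5.

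By share of the member counts, which needs no scaling, the HOXC cluster went from 11.7% ± 0.945 to 16.1% ± 0.508, the HOXB cluster from 16.7% ± 0.473 to 18.3% ± 1.28 and the HOXD cluster from 19.1% ± 1.85 to 14.1% ± 1.69 in HEK293. The groups did not overlap in any of the 3 (exact two-sided permutation p = 0.1, the smallest possible). The HOXA share was 52.5% ± 3.12 and 51.5% ± 1.51 and the lncRNA share 21.4% ± 0.409 and 22.4% ± 0.639, both with overlapping groups. Among single members HOXA13 had 11.7% ± 0.745 before and 6.74% ± 1.02 upon UV irradiation, and HOXC9 2.12% ± 0.0443 and 5.82% ± 0.454. HOXC9 alone made up 3.70 of the 4.34 percentage points by which the HOXC share was higher.

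Sense and antisense neighbours did not move as one. An mRNA and a lncRNA were paired where they shared exon bases or lay within 5 kb on opposite strands, which gave 41 pairs with both tested in HEK293, several sharing a member. In 22 of the 41 both log2 fold changes had the same sign, and in 11 of the 21 pairs that share exon bases. HOXC-AS2 and HOXC9 were furthest apart. The log2 ratio of HOXC-AS2 to HOXC9 counts was -1.80, -1.72 and -1.71 in nonirradiated and -4.32, -4.01 and -4.10 in irradiated samples, although 163 of their exon bases are in common. HOTAIRM1 and HOXA2, which share none, came next, with log2 ratios of 3.02, 3.52 and 3.28 and then 4.46, 5.59 and 5.62. HOXA13 with HOTTIP (-0.95 and -0.87) and HOXA11 with HOXA11-AS (0.57 and 0.39) moved alike. HOXB-AS3, at 0.06, lies beside HOXB3, HOXB4 and HOXB5, which fell, and HOXB7, which rose.

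In HepG2 6 such pairs were tested, 4 with the same sign. HOXA-AS2, nearly level, lies across HOXA3, which fell, and HOXA4, which rose. Its log2 ratio to HOXA4 was 2.50, 1.95 and 2.14 nonirradiated and 1.05, 1.23 and 1.12 irradiated in HepG2, and its ratio to HOXA3 was 0.53, 0.29 and 0.29 and then 1.09, 1.32 and 1.12. All irradiated samples stood apart from all nonirradiated ones in both ratios. In HEK293 the ratio to HOXA4 went the other way, from 2.54, 2.48 and 2.19 to 4.52, 3.30 and 3.03. The irradiated HEK293 samples had only 1, 9 and 8 HOXA4 counts. The HOXA4 call in HEK293 held in 2 of 6 fits that each left out 1 sample.

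The same 9 members were tested for a difference in UV effect between the lines, with the UV effect in HEK293 minus that in HepG2 as the quantity. HOXA4 and HOXD3 differed, 2 of 9, where 7.95% of the 16759 genes tested did. HOXA4 rose in HepG2 (1.14 ± 0.162) and fell in HEK293 (-1.34 ± 0.457), a difference of -2.38 ± 0.445 (adjusted p = 0.0052, edgeR). HOXD3 fell in HepG2 (-2.14 ± 0.464) and had -0.15 ± 0.231 in HEK293, a difference of 2.08 ± 0.486 (adjusted p = 0.019, edgeR). The HOXD3 call was lost without irradiated HepG2 sample 1 or 2 (adjusted p up to 0.0773), and both genes share much of their exon bases with others. In HepG2 HOXD3 passed the filter through its nonirradiated samples alone, which limits this call too. HOXA-AS2, which overlaps HOXA4, had a difference of -0.33 ± 0.269 (adjusted p = 0.48, edgeR).

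HOXD1 had positive values in both lines, at 1.16 ± 0.110 in HepG2 and 0.77 ± 0.326 in HEK293, where it did not pass. Its difference was -0.28 ± 0.315. HOTAIRM1 likewise had 0.39 ± 0.443 and 0.48 ± 0.181, with a difference of 0.19 ± 0.417. HOXA3 and HOXA5 had differences of 0.57 ± 0.225 and 0.70 ± 0.299 and HOXA-AS3 and HOXA6 of -0.40 ± 0.219 and -0.20 ± 0.333, none past the threshold.

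**Figure D5:**
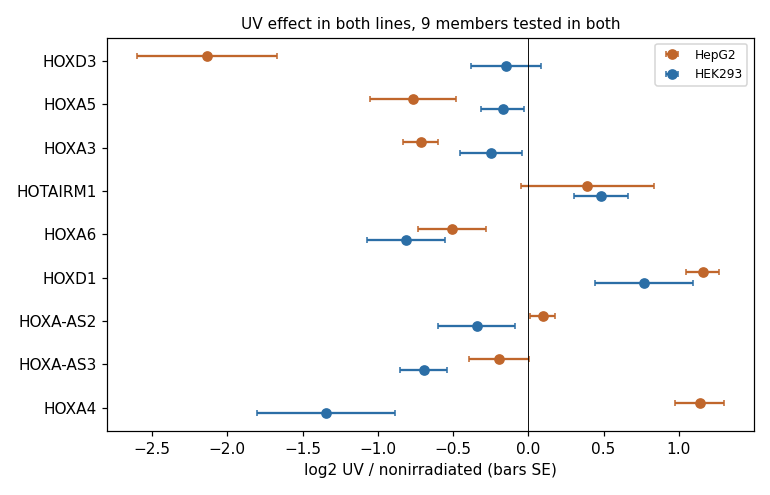
Log2 fold change upon UV irradiation with its SE in HepG2 (orange) and HEK293 (blue) for the 9 members tested in both lines, ordered by the difference. HOXA4 lies on opposite sides of 0 in the 2 lines, HOXD3 is far below 0 in HepG2 only, and the other 7 did not pass the test of the difference.

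RNAs of proteins that work with HOX factors or keep the clusters open or closed were measured in the same fits. All counts of genes below can be read against the backgrounds given above. TALE homeodomain cofactors (9) bind DNA together with HOX proteins. Of these 8 were higher in HEK293 than in HepG2 and 1 was lower, but only 5 of the 9 reached 0.5 CPM in HepG2. Genes that passed the filter only through HEK293 had to differ, so their calls are a description. MEIS3, with 42 counts over the HepG2 samples and 559 over those of HEK293, is 1 of them (5.45 ± 0.317 on the log2 scale). PBX3, which passed in both lines, was higher in HEK293 by 1.70 ± 0.169. PKNOX2, with 0 counts over the HepG2 samples and 134 over those of HEK293, and PBX4, with 1 and 21, are given without a fold. Upon UV irradiation 3 of 5 tested fell in HepG2, and 5 of 9 fell and 1 rose in HEK293. MEIS1 fell in both lines, with log2 fold changes of -1.24 ± 0.173 in HepG2 and -1.48 ± 0.165 in HEK293. PBX2 fell in HEK293 (-0.69 ± 0.173) and MEIS3 rose there (1.01 ± 0.250).

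Polycomb genes (23) were mixed. Between the lines 11 were higher and 7 lower in HEK293, with RBBP7, a histone-binding subunit, 2.70 ± 0.157 higher on the log2 scale and PHC2 2.33 lower (-2.33 ± 0.228). Upon UV irradiation 8 fell and 10 rose in HepG2, and 9 fell and 4 rose in HEK293. Over all genes tested, 40.7% fell and 38.1% rose in HepG2, and 26.4% fell and 24.2% rose in HEK293. PHC3 fell in both lines (-1.36 ± 0.0882 in HepG2 and -1.37 ± 0.280 in HEK293), as did SUZ12, a core subunit of the complex that methylates lysine 27 of histone H3 (-1.07 ± 0.190 and -1.14 ± 0.132). RING1, a ubiquitin ligase of the other main Polycomb complex, rose in both lines (1.15 ± 0.0798 in HepG2 and 0.99 ± 0.317 in HEK293), and CBX6 fell in both (-0.93 ± 0.128 and -1.46 ± 0.281).

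Of 12 Trithorax and H3K27 demethylase genes, 2 were higher and 7 lower in HEK293 than in HepG2, among them PSIP1 (2.07 ± 0.163) and KDM6B (-2.41 ± 0.391). Upon UV irradiation 6 fell and 4 rose in HepG2, and 2 fell and 2 rose in HEK293, against the same shares over all genes. KMT2A, a methyltransferase that keeps HOX genes active, fell in both (-1.26 ± 0.119 in HepG2 and -0.70 ± 0.143 in HEK293), as did the demethylase KDM6A (-1.24 ± 0.325 and -0.64 ± 0.189). For KMT2A the difference in UV effect passed its test (0.66 ± 0.1855, adjusted p = 0.0445, edgeR), the only 1 of the 12 to do so. DPY30, a small subunit of the same methyltransferase complexes, rose in both (1.13 ± 0.0746 and 0.98 ± 0.163).

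Upstream regulators (9) include the retinoic acid receptors and the CDX factors that switch the clusters on. Of 7 tested between the lines 5 were higher in HEK293 and 1 was lower. CDX2 had 12 counts over the HepG2 samples and 117 over those of HEK293. CYP26A1, which breaks retinoic acid down, had 23 and 178. Both passed the filter only through HEK293 and so had to differ. Their log2 differences of 4.97 ± 0.381 and 4.67 ± 0.354 are a description. Upon UV irradiation 2 of 5 fell and 1 rose in HepG2, and 2 of 7 rose in HEK293. RARB, a retinoic acid receptor, fell in HepG2 (-3.30 ± 0.545) and had -0.12 ± 0.173 in HEK293, and the difference passed its test (3.27 ± 0.472, adjusted p = 0.0009, edgeR). Of 13 cluster transcripts outside the naming rule only HAGLR and HAGLROS reached the filter, in both lines, and the others had at most 6 counts in a sample.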

How the data were processed

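Per the labels and the study's methods, rRNA was removed with Ribo-Zero, and HepG2 libraries were run on HiSeq4000 and HEK293 libraries on HiSeq2500. The labels name a stranded TruSeq kit and the methods an unstranded one. The authors aligned reads to hg38 with TopHat2 and deposited raw counts per gene over GENCODE v28 exons from featureCounts, with a read counted for each gene it overlapped and no strand option stated. The replicates are described as biological triplicates. The labels do not say how they were separated, so p-values measure the spread between these samples.

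From the deposited counts, CPM (per 1000000 counts over all genes), RPKM (CPM per kilobase of merged exons) and fits across all genes were computed. Of 58381 genes, 57799 matched a GENCODE 44 name. Each UV comparison used the 6 samples of its line and genes with a mean of at least 0.5 CPM in the nonirradiated samples. A member near that limit could thus enter by being high before irradiation. The baseline comparison took genes passing in either line, and the difference in UV effect those passing in both. Tests were edgeR 4.0.16 quasi-likelihood fits with TMM scaling in R 4.3.3, called at a Benjamini-Hochberg adjusted p under 0.05. They were checked on simulated data with few changed genes, as many up as down and none at low counts. That check cannot speak to the scaling where most genes change, or to calls on few counts. The study itself used DESeq2, run here (1.42.0) as an alternative. Exact permutation tests were two-sided (scipy 1.17.1).

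Same-numbered HEK293 samples deviated together (correlations 0.654, 0.368 and 0.461), so values with a replicate block are given where calls change. Samples 2 and 3 also correlated across numbers (0.281 and 0.262), while sample 1 against these had -0.435 to -0.522. The pattern was thus largely sample 1 apart from samples 2 and 3, and the pairing within samples 2 and 3 is less clear. This pairing comes from the data, not from the labels. In HepG2 the correlations were -0.00943, 0.00702 and -0.0244.

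Named were all called members, all tested lncRNAs, the 10 highest per length in each line, those on either side of 0.5 CPM, the 5 most different between lines in each direction, and from each list the genes with the largest called changes. A few genes that the counts include are not reported or drawn here by name. Values for other members that overlap or passed only with the block were chosen after they were seen. The members and lists were chosen with earlier results of these data known. Depth limits single values near 3 counts, and intervals and floors cover counting error only. Alternatives were other scalings, filters, a DESeq2 test, the block, thinned HepG2 counts, members with no shared exon base and leaving out each sample. The mouse samples were not used here.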

Additional observations from a re-analysis of the deposited data

Results flagged for a closer look

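The UV effect of 2 members differed between the lines in a test of the difference itself (an interaction term in edgeR over all 12 human samples, HEK293 minus HepG2, log2). For HOXA4 the difference was -2.378 (SE 0.445, adjusted p = 0.0052): every irradiated HepG2 sample stood above, and every irradiated HEK293 sample below, the nonirradiated samples of its line. For HOXD3 it was 2.077 (SE 0.486, adjusted p = 0.019), with all irradiated HepG2 samples below the nonirradiated ones and overlapping groups in HEK293. The HOXD3 values in irradiated HepG2 rest on 2, 3 and 6 counts, and the HOXA4 values in irradiated HEK293 on 1, 9 and 8.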

How the results depend on the processing

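Library totals alone moved most results, since that scaling shifts the median of all genes (-1.38 in HepG2, -0.84 in HEK293, 0.45 between lines, 0.34 for the difference). In HepG2 6 members were then lower and 0 higher, and log2 fold changes turned for HOXD1 (-0.14), HOXA4 (-0.17), HOTAIRM1 (-0.91) and HOXA-AS2 (-1.21). In HEK293 38 were called, 37 lower and 1 higher, and values turned for HOXD-AS2 (-0.69), HOXD8 (-0.51), HOTAIRM1 (-0.29), HOXA9 (-0.55), HOXA11 (-0.19), HOXA11-AS (-0.38), HOXC13-AS (-0.11), HOXC13 (-0.18), HOXC10 (-0.65), HOXC6 (-0.75), HOXC-AS1 (-0.30), HOXC4 (-0.77), HOXC5 (-0.25), HOXB2 (-0.39), HOXB-AS3 (-0.71), HOXB8 (-0.67), HOXB9 (-0.61) and HOXB13 (-0.19). Between lines 1 member was lower, and HOXA3 (0.36) and HOXA-AS2 (0.0501) turned. For the difference in UV effect 4 were called, and HOXD1 (0.16), HOXA-AS2 (0.12), HOXA-AS3 (0.0295) and HOXA6 (0.23) turned.

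With at least 10 counts in every sample fewer genes were tested: 3 members were higher in HEK293 upon UV, 5 higher between lines and 0 called for the difference, and values near 0 turned for HOXA-AS2 in HepG2 (-0.18) and for HOXD-AS2 (-0.0487), HOXC6 (-0.10), HOXC4 (-0.11), HOXB-AS3 (-0.0480) and HOXB8 (-0.0229) in HEK293. Of members sharing no exon base 1 was called in HepG2 (1 lower, 0 higher) and 4 in HEK293 (3 lower, 1 higher), out of fewer members. DESeq2 gave 3 higher in HEK293, and so did no filter. HOXC4, level in HEK293, turned with DESeq2's test (-0.00264), its size factors (-0.00205), no filter (-0.013) and a filter over all samples (-0.0361), and HOXC6 with the latter 2 (-0.000339, -0.0261). HepG2 counts thinned to HEK293 depth left 1 member lower between lines. Apart from library totals and the filters, the cause was not tested.

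The replicate block raised the HEK293 calls from 19 to 30, 11 of them higher, and gave HOXC4 -0.0040. No call changed under it in HepG2 or for the difference, and 1 was lost between lines.

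Leaving out each sample gave 13 to 20 members called in HEK293, 9 to 16 lower and 3 to 5 higher, 1 to 3 lower between lines, and 1 to 2 called for the difference. Signs turned in HEK293 for HOXD-AS2 (-0.13 to 0.24), HOXD3 (-0.33 to 0.0029), HOXC-AS3 (-0.39 to 0.29), HOXC6 (-0.068 to 0.13), HOXC4 (-0.073 to 0.12), HOXB-AS3 (-0.061 to 0.23) and HOXB8 (-0.092 to 0.36), and in the difference for HOTAIRM1 (-0.17 to 0.50) and HOXA6 (-0.35 to 0.044).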
